A study of Homo sapiens with 3 samples.

Results

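The interferon regulatory factors (IRFs) are transcription factors that share an amino-terminal DNA-binding domain and recognise GAAA-containing elements in interferon genes and interferon-stimulated genes. IRF1, IRF2, IRF3, IRF4, IRF5, IRF7, IRF8 and IRF9 were examined here through every probe set that names 1 of them alone, which gave 11 probe sets of 8 genes among 19065 probe sets of 11963 genes. Other family members were not analysed here. The samples were 3 cultures of HT-29, an established epithelial cell line from a human colon adenocarcinoma, so the values describe 1 line. Before treatment the cells had grown for 24 h from 50000 cells per cm2 in McCoy's 5A medium containing 10% serum. All of them received 200 U/ml interferon-γ (IFN-γ) for 24 h and are biological replicates per the series' design text. Untreated cells were not analysed here. Each value is therefore a level under IFN-γ, and the response to it cannot be read from these arrays.

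In the textbook pathway, IFN-γ acts through its receptor and JAK-STAT signalling on gamma-activated sites (GAS), and IRF1 is one of the first genes switched on. IRF2 binds the same elements as IRF1 and is known mainly as its antagonist. IRF9 is the DNA-binding part of ISGF3, a complex with STAT proteins, while IRF3 and IRF7 act downstream of nucleic acid sensors and drive the type I interferon genes. IRF5 takes part in inflammatory cytokine induction in immune cells, and IRF4 and IRF8 are known for lymphoid and myeloid development.

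Each value is the linear signal of a probe set, a group of short probes for 1 transcript region on an Affymetrix array. Their scale had been set before deposit, and the median signal lay between 137 and 144. Precision is limited by having only 3 arrays. The 100 brightest probe sets held 11.5%, 12.6% and 15.5% of the signal of replicates 1, 2 and 3. The names in the deposited table did not match the values and were re-ordered before any gene was read. Across 4310 genes with several probe sets, the log2 signals of the first and the next probe set correlated with r = 0.19 as deposited and r = 0.60 after re-ordering. Genes are not independent replicates, so no p is given. The order was then checked around each of the 11 IRF probe sets, using between 932 and 1059 neighbouring probe sets of other genes that had a partner elsewhere on the array. In these windows r lay between 0.40 and 0.59 at the order used. It reached at most 0.28 at any other shift of up to 20 rows, and between 0.03 and 0.09 as deposited. Every IRF value below depends on this order.

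A probe set was called detected when its log2 signal exceeded a background limit, taken for each array, beyond what the spread of the replicates allowed. That spread was moderated, which draws the value of each probe set toward that of probe sets of similar signal. The limit was the 95th percentile over 80 genes known from other tissues (tissue-restricted genes), and it stood at 267, 289 and 207 signal units in replicates 1, 2 and 3. By a one-sided limma test with Benjamini-Hochberg adjustment over all 19065 probe sets, IRF1, IRF2, IRF3, IRF7 and IRF9 were detected, and IRF4, IRF5 and IRF8 were not. This was 5 of 11 IRF probe sets, where 31.5% of all probe sets were detected. Counted by gene it was 5 of 8 IRF genes, where 36.6% of all genes had a detected probe set. Both IRF shares were above their backgrounds, but 11 probe sets of 8 genes are too few to read this as a trait of the family, and it was not tested. The means of the detected IRF genes lay between 1.38 and 4.31 log2 units over the limit, with IRF2 the nearest to it.

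**Figure D1:**
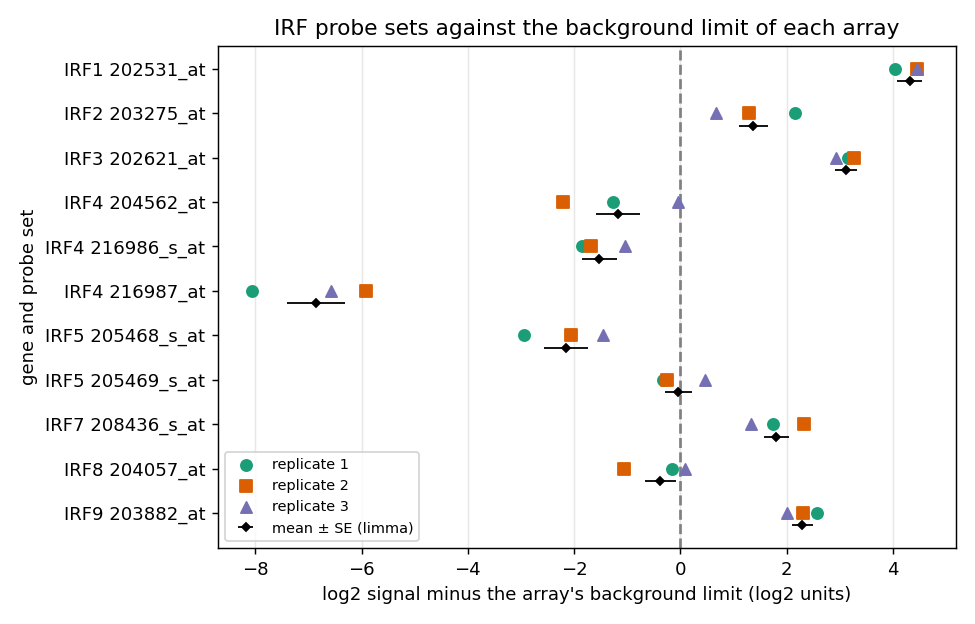
Log2 signal minus the background limit of the same array for each of the 11 IRF probe sets, with 1 symbol per replicate and a diamond for the mean ± SE of limma's fit (n = 3). All replicates of IRF1, IRF2, IRF3, IRF7 and IRF9 lie right of the dashed line at the limit, while those of IRF4, IRF5 and IRF8 lie left of it except replicate 3 of IRF5 205469_s_at and of IRF8.

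IRF1, the activator known as a primary target of IFN-γ signalling, was read from probe set 202531_at. Its signal was 4375, 6324 and 4557 in replicates 1, 2 and 3, with a mean of 5085 ± 1076 (SD, n = 3). All cultures were far above the limit, and replicate 2 was the highest. The mean lay 4.31 ± 0.23 (SE) log2 units over the limit, a 19.9-fold excess, and was detected with a limma adjusted p of 3.82e-07. The highest and lowest cultures differed by 1.45-fold.

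The bases before the start of IRF1 are shown because its promoter is a classical binding site of the IFN-γ pathway. They come from RefSeq (GRCh38.p14, chr5:132490774-132491023, minus strand, 250 bases up to the start) and are written 5′ to 3′. Capitals mark the match to the GAS letters TTCNNNGAA, which read the same on both strands.
IRF1: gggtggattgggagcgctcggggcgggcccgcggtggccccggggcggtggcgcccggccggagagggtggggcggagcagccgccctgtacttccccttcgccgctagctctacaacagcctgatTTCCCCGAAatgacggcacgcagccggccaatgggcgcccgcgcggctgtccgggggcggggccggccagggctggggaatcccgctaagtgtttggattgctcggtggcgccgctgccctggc
The match TTCCCCGAA began 124 bases before the start. Such a match was present in 6.57% of 35116 promoter windows of the same length, so it is a description of the sequence and not evidence of binding.

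IRF2, the antagonist, varied more between cultures than any other detected IRF. Probe set 203275_at gave 1193, 708 and 331 in replicates 1, 2 and 3, with a mean of 744 ± 432 (SD, n = 3). Every culture was above its limit, replicate 1 was the highest and replicate 3 the lowest, and they differed by 3.61-fold. The mean lay 1.38 ± 0.27 (SE) log2 units over the limit and was detected with a limma adjusted p of 0.00126. This p draws on the moderated spread, and without a trend of variance on signal the limma adjusted p was 0.0175. With the limit set at the 99th percentile of the tissue-restricted genes instead, IRF2 lay at -0.18 and was not detected.

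Because IRF1 and IRF2 compete for the same elements, their ratio was followed within each array, where a scaling factor of the array cancels. The log2 ratio of IRF1 over IRF2 was 1.87, 3.16 and 3.78 in replicates 1, 2 and 3. It was lowest in replicate 1 and highest in replicate 3, a range of 1.91 log2 units or 3.76-fold between cultures given the same treatment. For replicate 3 minus replicate 1, IRF1 differed by 0.06 and IRF2 by -1.85 log2 units, so this range mostly repeats the spread of IRF2. The ratios of IRF1 over IRF9, IRF7 over IRF3 and IRF7 over IRF9 had ranges of 0.99, 0.66 and 0.85 log2 units. Only the variation between cultures can be read from the ratio of IRF1 over IRF2, since the 2 probe sets differ in their own brightness. The 3 arrays allow no test of this variation. The brightest 100 probe sets also held their largest share of signal in replicate 3, and the part of this difference between arrays in the ratio was not tested.

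IRF9, the DNA-binding subunit of ISGF3, was read from probe set 203882_at. It gave 1586, 1429 and 833 in replicates 1, 2 and 3, which is a mean of 1283 ± 397 (SD, n = 3). All cultures were above the limit, with replicate 3 lowest. The mean lay 2.29 ± 0.20 (SE) log2 units over the limit, which is 4.90-fold, with a limma adjusted p of 3.70e-06. A further probe set is shared with the neighbouring gene RNF31 in the annotation and was left out.

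The RefSeq promoter of IRF9 (GRCh38.p14, chr14:24161015-24161264, plus strand, 250 bases up to the start) is shown beside that of IRF1 because it was the only other IRF window with the GAS letters, again in capitals.
IRF9: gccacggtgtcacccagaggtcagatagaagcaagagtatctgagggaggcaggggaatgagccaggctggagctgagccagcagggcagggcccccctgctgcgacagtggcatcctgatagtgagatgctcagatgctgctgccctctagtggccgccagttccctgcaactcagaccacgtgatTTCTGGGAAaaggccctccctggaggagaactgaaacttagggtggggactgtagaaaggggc
The match TTCTGGGAA began 63 bases before the start. Windows were matched by symbol for 5 of the 8 IRF genes, 9 windows in all, those of IRF1, IRF4, IRF5, IRF8 and IRF9. GAS letters were found in 2 of these windows. The interferon-stimulated response element, searched as GAAANNGAAA on both strands, was found in 0 of the 9 and in 3.02% of all 35116 windows. No match says only that these letters are absent from the window searched.

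IRF3, which is known as a constitutively made protein activated by phosphorylation, was read from probe set 202621_at. It had signals of 2372, 2795 and 1577 in replicates 1, 2 and 3, and a mean of 2248 ± 619 (SD, n = 3). Replicate 3 was the lowest culture and all 3 were far above the limit. The mean lay 3.12 ± 0.20 (SE) log2 units over the limit, 8.67-fold, with a limma adjusted p of 5.37e-07.

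IRF7, the interferon-inducible partner of IRF3 in type I interferon transcription, was measured by probe set 208436_s_at alone. The signals were 901, 1462 and 522 in replicates 1, 2 and 3, with a mean of 962 ± 473 (SD, n = 3). All cultures were above the limit, and the highest, replicate 2, exceeded the lowest, replicate 3, by 2.80-fold. The mean lay 1.81 ± 0.23 (SE) log2 units over the limit, with a limma adjusted p of 5.36e-05. The suffix _s_at marks probe sets that match several transcripts, so IRF7 has no value without such designs. At the 99th percentile limit IRF7 lay only 0.26 log2 units over and was not detected (limma adjusted p = 0.941).

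IRF5, a regulator of inflammatory cytokines, had a pair of probe sets, and neither was detected. Probe set 205469_s_at gave 213, 245 and 284 in replicates 1, 2 and 3, which placed it under the limit in replicates 1 and 2 and over it in replicate 3. Its mean lay at the limit, at -0.04 ± 0.25 (SE) log2 units. Probe set 205468_s_at gave 34.6, 69.8 and 75.9, under the limit on every array, with a mean of -2.15 ± 0.41 (SE) log2 units. Both probe sets carry the _s_at suffix, and they disagreed in how far they lay from the limit.

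IRF8, a myeloid and lymphoid factor that IFN-γ is known to induce in macrophages, was close to the limit. Probe set 204057_at gave 239.6, 138 and 219 in replicates 1, 2 and 3, and only replicate 3, where the limit was lowest, exceeded it. The mean of -0.38 ± 0.29 (SE) log2 units was not above the limit.

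IRF4, a factor of lymphocyte activation and plasma cells, was under the limit on every array with all 3 of its probe sets. Probe set 204562_at gave 111, 62.7 and 201 in replicates 1, 2 and 3, so that replicate 3 stood at -0.04 and replicate 2 at -2.21 on the log2 scale against the limit. Probe set 216986_s_at gave 74.3, 90.4 and 101. Probe set 216987_at gave 0.996, 4.77 and 2.16, which is a mean of -6.86 ± 0.55 (SE) log2 units relative to the limit. None of the 6 undetected probe sets of IRF4, IRF5 and IRF8 had an unadjusted limma p under 0.05, and the smallest was 0.557. A signal at the limit does not show that a transcript is absent.

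IRF4, IRF5 and IRF8 are the members best known from leukocytes, and leukocyte markers were measured beside them. Of 11 measured leukocyte markers 0 were detected by limma, where 36.6% of all genes had a detected probe set. Among the probe sets of these markers 0 had an unadjusted limma p under 0.05, and no marker was above the limit on any array. The summed signal of these markers was 662, 890 and 769 in replicates 1, 2 and 3. PTPRC, the common leukocyte antigen, had 32.6, 4.77 and 10.9, and CD79B, a part of the B cell receptor, had 17.3, 10.0 and 7.05. The epithelial label held, with 10 of 10 markers detected beside 36.6% of all genes, among them KRT18, KRT8 and EPCAM. Of 5 fibroblast and 4 endothelial markers 0 were detected by limma, and 0 had an unadjusted p under 0.05. Of the fibroblast markers 1 lay above the limit on 2 of 3 arrays, the collagen COL1A1, with a mean of 0.45 log2 units over it (limma adjusted p = 0.156), and it was named with its values known.

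The detected IRFs other than IRF1 had the same lowest culture, while their highest culture differed. Replicate 1 was the highest for IRF2 and IRF9, and replicate 2 for IRF3 and IRF7. IRF2, IRF3, IRF7 and IRF9, 4 of the 5 detected IRF probe sets, had their lowest signal in replicate 3, as did 42.4% of all 6012 detected probe sets. IRF1 was lowest in replicate 1, by 0.06 log2 units under replicate 3. After quantile normalization of the arrays IRF1 was lowest in replicate 3 as well, with a difference of -0.04 for replicate 3 minus replicate 1, and the share over all detected probe sets was 38.3%. The other 4 differences kept their direction, and IRF2 still differed by -1.73 for replicate 3 minus replicate 1, against -1.85 under the deposited scaling. The median over all detected probe sets of replicate 3 minus replicate 1 was -0.06 under the deposited scaling, which had set the arrays to a common level, and the part of array differences in the shift of IRF2 was not tested. Of the 6 undetected IRF probe sets, 4 had their highest signal in replicate 3, as did 41.8% of all undetected probe sets.

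**Figure D2:**
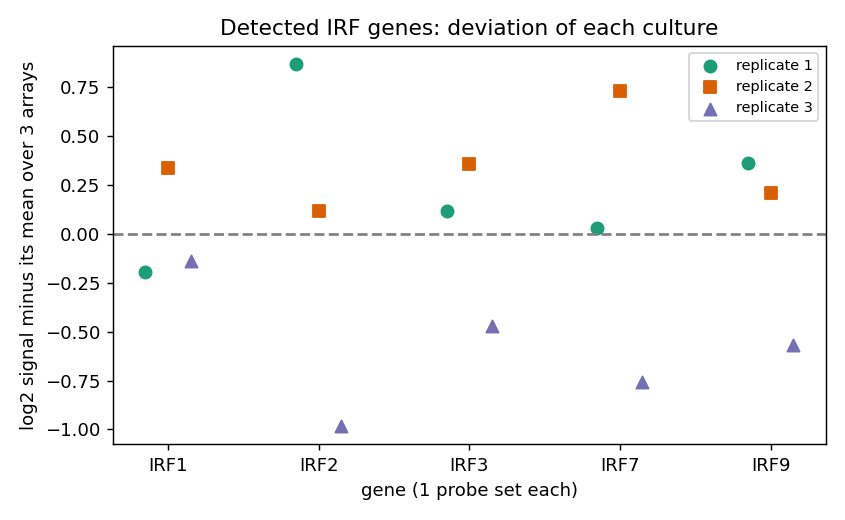
Log2 signal of each detected IRF gene minus its mean over the 3 arrays, with 1 symbol per replicate. Replicate 3 is the lowest for IRF2, IRF3, IRF7 and IRF9, whereas IRF1 is highest in replicate 2 and nearly level in replicates 1 and 3.

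The spread over cultures set IRF2 and IRF7 apart in size from the other detected IRFs. The SD of log2 signal was 0.93 for IRF2, 0.74 for IRF7, 0.50 for IRF9, 0.43 for IRF3 and 0.29 for IRF1. Over all detected probe sets the median SD was 0.29, with quartiles of 0.18 and 0.42. An SD as large as that of IRF2 was found in 1.15% of detected probe sets, and one as large as that of IRF7 in 3.63%. Among probe sets of similar signal, within 0.5 log2 units of the mean, the shares were 1.64% of 2251 for IRF2, 5.18% of 1948 for IRF7, 15.3% of 1573 for IRF9, 21.8% of 989 for IRF3 and 37.8% of 474 for IRF1. IRF1 therefore varied about as much as the median detected probe set, and IRF2 more than nearly all detected ones. All these shares cover detected probe sets only, and detection itself depended on the moderated spread. A probe set near the limit with a large SD was thus less likely to be counted, which can make the shares too small. The size of this effect was not tested. Each SD comes from 3 values, and no test between single arrays was possible.

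**Figure D3:**
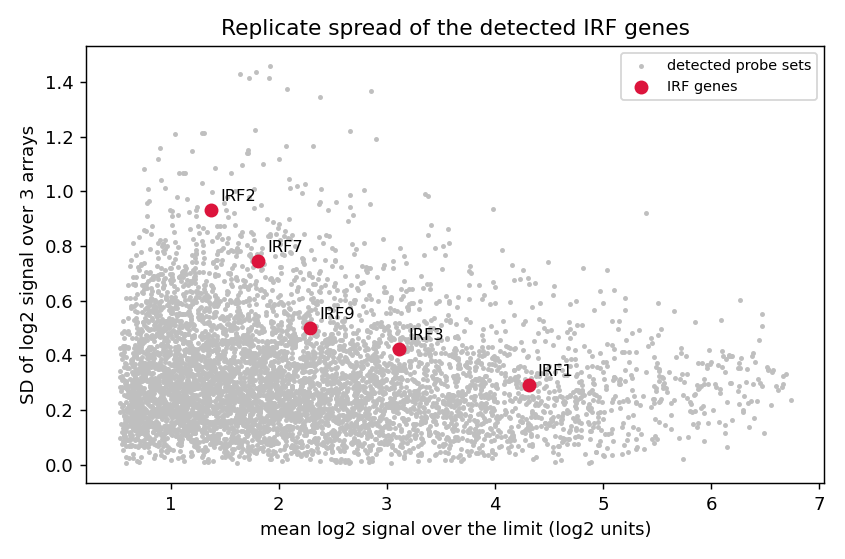
SD of log2 signal over the 3 arrays against the mean log2 signal over the limit, for the 6012 detected probe sets in grey and the detected IRF genes in red. IRF2 with an SD of 0.93 and IRF7 with 0.74 lie above most of the cloud, which reaches higher values. IRF1 with 0.29 lies in the middle of the cloud.

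The genes whose pattern over the 3 arrays was most like that of IRF1 were SDHAF1, S100A10 and DHRS3. Likeness was the Euclidean distance between log2 deviations from each gene's own mean, over 2512 detected probe sets of other genes without cross-hybridising or shared designs. The distances were 0.02, 0.02 and 0.03, and 35 probe sets lay within 0.1, so 3 arrays do not single out a partner. For IRF2 the nearest were TPBG, WIPF2 and CALR at 0.35, 0.35 and 0.35, and 0 lay within 0.1. CALR had 1451, 1028 and 339 in replicates 1, 2 and 3 and TPBG had 709, 518 and 275, so that both, like IRF2, were highest in replicate 1 and lowest in replicate 3.

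**Figure D4:**
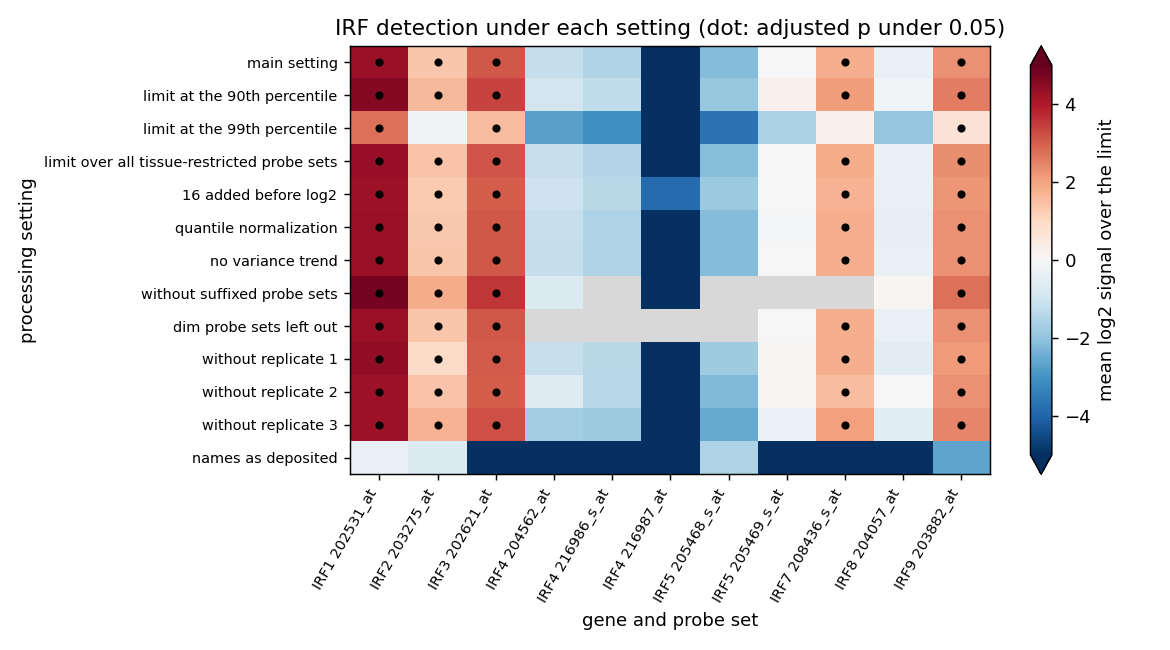
Mean log2 signal over the limit (colour, capped at 5 units either way) of each IRF probe set under 13 settings, with a dot where the limma adjusted p is under 0.05 and grey where the probe set is not tested. The dots stand in the columns of IRF1, IRF2, IRF3, IRF7 and IRF9, are lost for IRF2 and IRF7 at the 99th percentile limit, and are absent under the names as deposited.

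Upstream of the family, sensors, adaptors and kinases that activate IRF3, IRF5 and IRF7 were detected for 7 of 16 measured genes, a share of 43.8% beside 36.6% of all genes. The median gene lay 0.24 log2 units over the limit, beside -0.39 over all genes. The 3 farthest over the limit were IRAK1, a kinase of Toll-like receptor signalling, at 4.68, the RNA helicase DDX3X at 3.58 and the adaptor TANK at 3.25 log2 units (limma adjusted p of 3.82e-07, 8.65e-07 and 6.65e-07). The endosomal RNA sensors TLR7 and TLR8 lay farthest under it, at -6.03 and -5.03. TBK1, the kinase that phosphorylates IRF3, had 1311, 986 and 1169 in replicates 1, 2 and 3 and was detected at 2.19 log2 units over the limit. MYD88, the adaptor that couples Toll-like receptors to IRF5 and IRF7, had 2761, 2731 and 1824 and was detected at 3.25. The naming of TBK1 and MYD88 followed a look at their values, and both are detected genes. Undetected on the same list were also IKBKE at -0.04, MAVS at -0.14, TRAF3 at -0.63, TLR4 at -0.96 and TICAM1 at -1.90. TRAF6 at 0.17 and RIGI at 0.32 lay above the limit on all 3 arrays without passing the test. These undetected genes too were named with their values known.

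Among proteins known to bind IRFs, 6 of 12 measured genes were detected, or 50%, beside 36.6% of all genes. The difference between these shares was not tested. Of the 17 listed partners 5 were not analysed here. The nucleolar protein NPM1, which binds IRF1, lay at 5.78 log2 units over the limit, the deacetylase HDAC1 at 4.23 and the immunophilin FKBP4, which binds IRF4, at 3.35. The Ets factors that recruit IRF4 and IRF8 to DNA in B cells and myeloid cells were not detected. SPI1 had signals of 4.11, 21.0 and 7.0 in replicates 1, 2 and 3, and SPIB had 43.0, 62.5 and 13.5, all far under the limit.

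Genes known as IRF1-linked targets were detected for 14 of 23 measured members, a share of 60.9% beside 36.6% of all genes, and their median lay 2.29 log2 units over the limit. B2M, the light chain of MHC class I, lay at 6.47 log2 units over the limit, the immunoproteasome subunit PSMB9 at 5.11 and the chemokine CXCL10 at 4.87. B2M also stood on a list of 13 measured housekeeping genes, all of which were detected, so its level is not particular to the IRF1-linked list. PSMB9 had 9907, 9909 and 6769 in replicates 1, 2 and 3. The iron-binding protein LTF and the cytokine subunit IL12B lay farthest under the limit, at -4.82 and -2.32. CIITA, the class II master regulator and a known joint target of IRF1 and STAT signalling, had 180, 181 and 198 in replicates 1, 2 and 3 and lay at -0.44 ± 0.26 (SE). Its naming here followed a look at its values.

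Of the genes known as targets of ISGF3, the complex that holds IRF9, 22 of 28 measured members were detected. This was 78.6%, beside 36.6% of all genes, and the median lay 2.03 log2 units over the limit, beside -0.39 over all genes. ISG15, a ubiquitin-like modifier, had 5544, 8967 and 7833 in replicates 1, 2 and 3 and lay at 4.86 log2 units. Its conjugating enzyme UBE2L6 lay at 4.47 and IFI27 at 4.0, with signals between 3911 and 4130 for IFI27. RSAD2 and IFI44L, both antiviral interferon-stimulated genes, were not detected, at -1.31 and -0.72. No gene was placed on both this list and that of IRF1, which describes only how the lists were drawn up.

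None of the measured type I interferon genes, the best known targets of IRF3 and IRF7, passed the detection test in the same cultures in which both factors were detected, and 0 had an unadjusted limma p under 0.05. IFNB1, the interferon-β gene, had 7.60, 7.88 and 8.53 in replicates 1, 2 and 3, or -4.98 log2 units relative to the limit, and IFNA2 had 3.81, 10.2 and 6.82. IFNA17, read from a cross-hybridising design, had 295, 383 and 284 and lay above the limit on all 3 arrays by a mean of 0.33 log2 units, without passing the test (limma adjusted p = 0.223); it was added with its values known. Of 18 measured genes on this list 4 were detected, or 22.2%, beside 36.6% of all genes. The median of the list was -1.78 log2 units, beside -0.39 over all genes. The 4 detected genes were CXCL11 at 4.59, ISG15, IFIT1 at 1.11 and IFIT2. Of these, ISG15, IFIT1 and IFIT2 also stood on the ISGF3 list. Transcript levels of IRF3 and IRF7 do not measure their phosphorylation.

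Genes linked to IRF4, IRF5 and IRF8 in immune cells were detected for 3 of 17 measured members, or 17.6%, beside 36.6% of all genes. The median of the list was -1.73 log2 units, beside -0.39 over all genes. The 3 were MYC at 3.94, the secretory pathway factor XBP1 at 3.45 and the repressor BCL6 at 0.73 (limma adjusted p = 0.0130), all of which are also expressed outside leukocytes. CYBB and IL12B of this list also stood on the IRF1-linked list, and CSF1R also stood among the leukocyte markers. The cytokine IL4 and the oxidase subunit NCF1 lay farthest under the limit, at -5.15 and -3.69. IL4 had 1.94, 2.97 and 62.0 in replicates 1, 2 and 3, so that 1 array sets its mean.

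**Figure D5:**
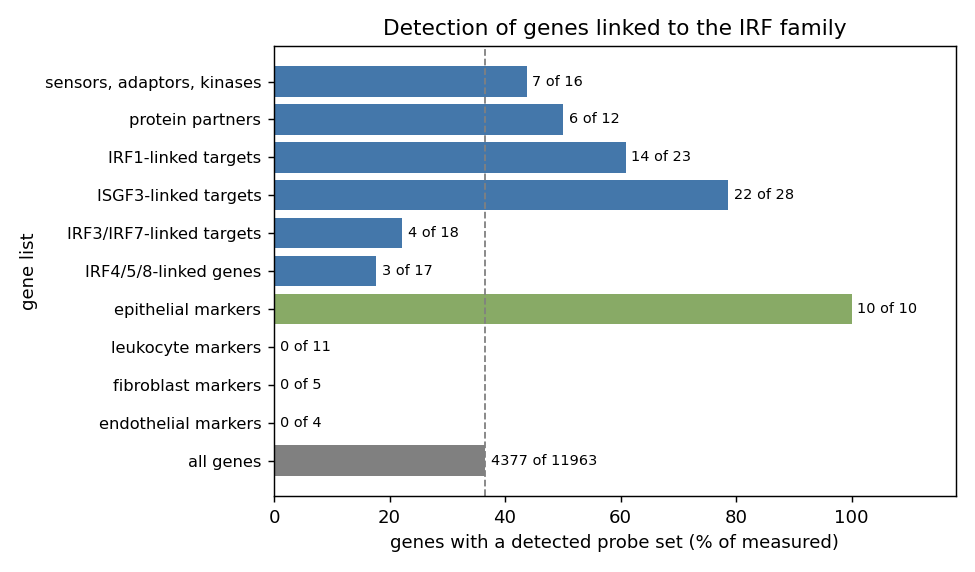
Share of measured genes with a detected probe set in each list linked to the IRF family (blue), in the marker lists (green) and over all genes (grey, dashed line at 36.6%), with counts beside the bars. The ISGF3-linked list reached 22 of 28 and the IRF1-linked list 14 of 23, while the IRF4, IRF5 and IRF8-linked list reached 3 of 17 and the leukocyte markers 0 of 11.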

How the data were processed

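Affymetrix arrays of 3 treated HT-29 cultures were used. The table holds linear intensity for each probe set as deposited. The submitters' processing notes name MAS5 and Affymetrix Expression Console 1.1. With 2% of values trimmed at either end, the mean signal of every array was 500.3, so each had been scaled to that level. The notes and the table name no background step or presence calls. The names were re-ordered against the values: after 6 empty rows were dropped, 15 unnamed values came first, then 100 probe sets numbered from 200000, 493 with lower numbers, 21622 others in file order and 47 unnamed values. The 62 control values were left out.

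Log2 was taken with no pseudocount, and the array's background limit was subtracted. Of 97 listed tissue-restricted genes 80 were measured, each taken as its brightest probe set, and 3 of them were detected. The limit was treated as known. An intercept was fitted with limma 3.58.1 under R 4.3.3, allowing a trend of variance on signal, tested one-sided at an adjusted p of 0.05, and checked on simulated data. P-values measure only the spread between these cultures, moderated over all probe sets. Members, lists and tests were chosen with earlier results of these data known. All IRF probe sets are named; of each list, the 3 detected genes farthest over the limit and the 2 undetected ones farthest under it. Alternatives changed the name order, limit, pseudocount, normalization, trend, probe sets, gene summary and replicates.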

Additional observations from a re-analysis of the deposited data

How the results depend on the processing

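IRF1, IRF3 and IRF9 were detected under every alternative tried except the names as deposited, and IRF2 and IRF7 under those that tested them except the names as deposited and the 99th percentile limit, while IRF4, IRF5 and IRF8 were detected under none of those tried. Under the names as deposited 448 probe sets, 0 IRF probe sets, 0 IRF genes and 6 pathway genes were detected by limma (0 IRF probe sets at an unadjusted p under 0.05), the name check gave r = 0.19, and IRF1, IRF2, IRF3, IRF7 and IRF9 lay at -0.37, -0.67, -8.88, -7.75 and -2.63 log2 units, with limits between 3382 and 3579 on the arrays; the cause was not tested. At the 99th percentile limit 2639 probe sets, 3 IRF probe sets and 3 IRF genes were detected, and IRF2 lay at -0.18 log2 units. Leaving out suffixed probe sets left 3057 detected of 10100, with 4 of 7 IRF probe sets. Leaving out 1 replicate gave between 5388 and 6092 detected probe sets, 5 IRF probe sets each time, and between 50 and 54 of 109 pathway genes, where all arrays gave 53. No paired analysis was possible because there is only 1 group. The 3 arrays and the choice of limit bound what can be said of IRF5 and IRF8, which lie near it.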
